A study of Mus musculus with 12 samples.

Results

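The respiratory chain of the mitochondrion was followed at the RNA level in mouse muscle stem cells (satellite cells) at rest and after injury, with and without the transcription factor gene Gli3. Its members were all protein-coding genes of the count table whose symbols begin with Nduf, Uqcr, Cox4 to Cox8 or Atp5, are Sdha, Sdhb, Sdhc or Sdhd, or name a protein encoded by the mitochondrial genome. They numbered 106 of 25093 genes, 93 in the nucleus and 13 in the mitochondrion, and 4 processed pseudogenes whose symbols match the same pattern were left out. By complex, 44 members encode subunits of complex I (37 nuclear, 7 mitochondrial), 4 of complex II, 9 of complex III (8 and 1), 20 of complex IV (17 and 3) and 20 of complex V (18 and 2). A further 8 members (Ndufaf1 to Ndufaf8) help to assemble complex I without staying in it, and Ndufa4l2, a relative of the complex IV subunit Ndufa4, was kept apart.

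All mice carried Pax7-CreERT2/+ and R26R-YFP, were 3 to 4 months old and received tamoxifen. Controls were Gli3+/+ (Gli3 Ctr), and the other mice were Gli3fl/fl (Gli3 KO), in which Cre removes exon 8 of Gli3. Cre is made from the Pax7 locus, so that within muscle the deletion is limited to satellite cells and their progeny. Quiescent satellite cells (QSCs) were sorted as α7-INTEGRIN+ CD34+ cells from uninjured hindlimb muscle, and activated satellite cells (ASCs) as α7-INTEGRIN+ VCAM1+ cells from muscle taken 3 days after cardiotoxin, a venom peptide that destroys muscle fibres. At least 2 mice were pooled for each QSC library and 1 mouse was used for each ASC library, so state cannot be told apart from gate, muscles, injury or pooling. Both gates left out cells positive for CD31, CD45, SCA1 or CD11b, markers of endothelial, blood, mesenchymal and myeloid cells. There were 3 QSC libraries per genotype and 6 ASC libraries, which the labels give as 3 Gli3 Ctr and 3 Gli3 KO. The ASC columns carry numbers (246, 540, 543, 928, 960 and 1818) that do not match a label, and the labels of 2 ASC samples give a genotype that goes against their titles. Genotype was therefore compared in QSCs only, and the effect of Gli3 in ASCs, or a difference of that effect between states, was not analysed here. In the comparison of states each state holds both genotypes.

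Complexes I, III and IV pass electrons from NADH to oxygen and pump protons out of the matrix, complex II feeds in electrons from succinate without pumping, and complex V, the ATP synthase, lets the protons back in to make ATP. Only complex II is built wholly from nuclear genes. The other complexes need proteins from both genomes, which are transcribed by different polymerases: each nuclear gene has its own promoter, whereas the mitochondrial genes are cut out of long transcripts that run round the circular genome. Quiescent satellite cells are small cells with few mitochondria, and their activation after injury is known to be accompanied by cell growth and a build-up of mitochondria.

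The libraries held between 36886130 and 65750131 estimated counts. Pax7, which defines satellite cells, stood at a mean of 977 CPM (counts scaled to a common library total) in QSCs and 93.1 CPM in ASCs, and 7 of 8 satellite cell markers were called lower in ASCs. ASC library 928 stood apart: its macrophage markers summed to 4701 CPM (216 to 618 CPM in the other ASC libraries, 10.2 to 25.5 CPM in QSCs), and its fibro-adipogenic markers to 3359 CPM (153 to 519 CPM in the other ASC libraries, 171 to 402 CPM in QSCs). All 6 macrophage markers were called higher in ASCs. Genes of the response to tissue dissociation ran the other way, with a sum of 38687 to 57689 CPM in QSCs and 1574 to 4432 CPM in ASCs. The gates left out cells with the surface markers of these types. Library 928 also had the highest ASC sums of mural (880 CPM), endothelial (342 CPM), Schwann (842 CPM) and erythroid markers (511 CPM). Its satellite cell markers had the lowest sum (1197 CPM). The part of all these markers and of the dissociation response in the results below was not tested. Results that rest on library 928 are given with and without it. Gli3 itself stood at 9.40 to 11.3 CPM in Gli3 Ctr QSCs and 6.27 to 10.7 CPM in Gli3 KO QSCs (log2 fold change -0.22 ± 0.22 SE, edgeR adjusted p = 0.916), which does not check the genotype since only 1 exon is removed.

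The 13 mitochondrial genes far outweighed the 84 nuclear subunit genes in the RNA of both states. In QSCs the mitochondrially encoded subunits took 3.34% to 4.14% of all counts and the nuclear encoded subunits 0.493% to 0.602%. In ASCs the mitochondrial share was 3.73% to 5.23%, whereas the nuclear share was 0.982% to 1.43%, above every QSC library. The ratio of mitochondrial to nuclear subunit counts was 6.93, 7.89 and 6.67 in Gli3 Ctr QSCs, 7.72, 7.18 and 6.86 in Gli3 KO QSCs, and 3.25, 3.19, 3.33, 5.32, 2.61 and 3.12 in ASC libraries 246, 540, 543, 928, 960 and 1818. No ASC library reached the lowest QSC library, and library 928 was the highest ASC library. The mean ratio in ASCs was 0.481 times that in QSCs, and 0.430 times without library 928. It is given as a description, without a test.

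**Figure D1:**
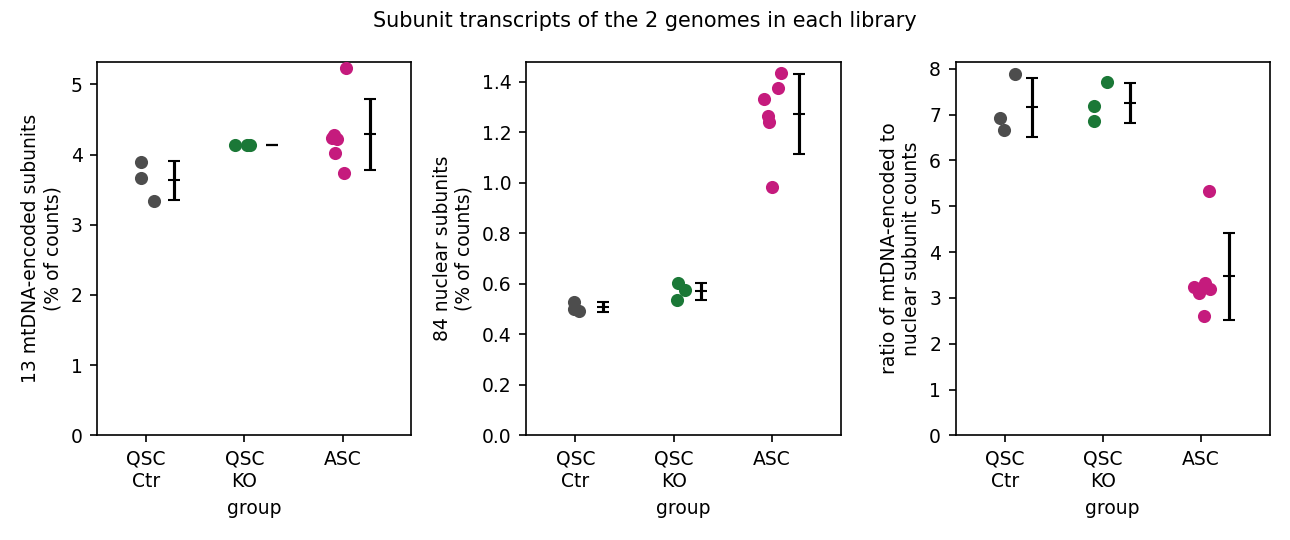
Share of all estimated counts taken by the mitochondrially encoded subunits (left) and the nuclear encoded subunits (middle), in percent, and their ratio (right), with 1 point per library in Gli3 Ctr QSCs, Gli3 KO QSCs and ASCs, and the mean ± SD. The nuclear share lies at 0.493% to 0.602% in QSCs and 0.982% to 1.43% in ASCs, while the mitochondrial shares of the states overlap.

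Per kilobase of transcript, the scale on which genes can be compared with each other, 12 of the 13 mitochondrial genes had a mean above that of every nuclear member in Gli3 Ctr QSCs. The highest was mt-Atp6, a proton channel subunit of complex V, at 8468 ± 707 CPM per kb (SD, n = 3), followed by the complex IV subunits mt-Co2 (6192 ± 180.0), mt-Co3 (5931 ± 311) and mt-Co1 (5215 ± 272). The order of mt-Co2 and mt-Co3 lay within their spread. The exception at the low end was mt-Nd6, the only protein encoded on the other strand of the mitochondrial genome, at 51.1 ± 15.3 CPM per kb. Among nuclear members, Cox4i1, the regulatory subunit of complex IV, stood at 354 ± 13 CPM per kb and the catalytic β subunit Atp5b of complex V at 352 ± 60.0, within their spread of each other. In ASCs that order changed, with Atp5b at 1064 ± 157, the membrane ring subunit gene Atp5g3 at 705 ± 129.6 and Cox4i1 at 540.0 ± 46.9 CPM per kb (n = 6). At the low end in Gli3 Ctr QSCs lay the muscle or lung forms of complex IV subunits, such as Cox6a2 (0.216 ± 0.149), Cox4i2 (0.907 ± 0.554) and Cox8b (1.32 ± 0.663 CPM per kb).

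The nuclear members were higher in ASCs than in QSCs almost throughout, and the mitochondrial members were not. Of the 106 members, 85 were called higher and 2 lower, where called means an edgeR quasi-likelihood test with a Benjamini-Hochberg adjusted p under 0.05 over all genes and a fold change of at least 1.2. Among all genes tested, 30.4% were called higher and 28.8% lower. These include many genes with few counts. Of the 13155 protein-coding genes with a mean of at least 1 CPM, 5520 were called higher and 4176 lower. In 4214 of the 13155 every ASC library lay above every QSC library. In 81 members every ASC library lay above every QSC library, against 20.6% of all genes, and in 1 member every ASC library lay below, against 19.1%. In bulk RNA, fewer cells of a type and less RNA per cell cannot be told apart, and all values are shares of a library rather than amounts per cell.

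Split by genome, 82 of 93 nuclear members were called higher and 2 lower, with a median log2 fold change of 1.17 (2.26-fold). The median over the protein-coding genes with a mean of at least 1 CPM was 0.18. Of the 13 mitochondrial members 3 were called higher and none lower by edgeR, with a median log2 fold change of 0.19. Without library 928 the nuclear median was 1.21 and the mitochondrial median 0.06. When library sizes were taken from the upper quartile, which shifted the median of all genes by -0.16, the nuclear median was 1.03 and the mitochondrial median 0.02.

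**Figure D2:**
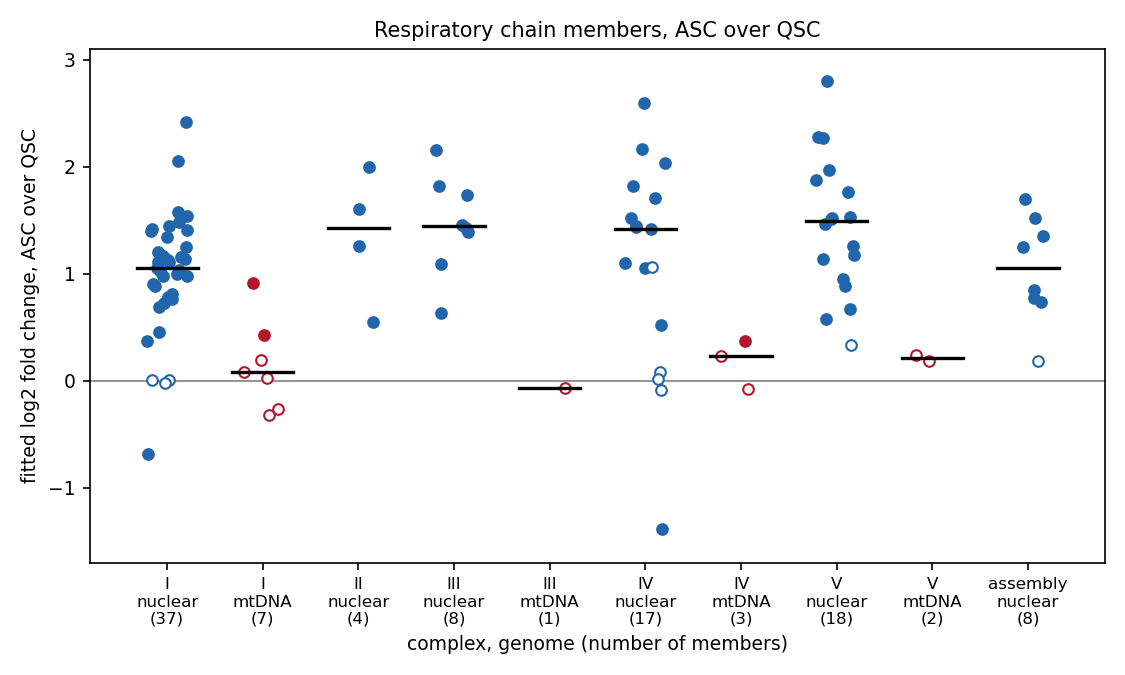
Fitted log2 fold change of each member in ASCs over QSCs (12 libraries), by complex and by genome, with filled points for called members, open points for the others and a bar at the median. Nuclear medians lie between 1.05 and 1.49 in every complex, mitochondrial medians between -0.07 and 0.23, and Ndufa4l2 is not drawn.

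The nuclear difference appeared in every complex, with a lower median in complex I than in the others, which was not tested. The median log2 fold change of the nuclear subunits was 1.05 for complex I, 1.43 for complex II, 1.44 for complex III, 1.42 for complex IV and 1.49 for complex V, and 1.05 for the complex I assembly factors. Called higher were 33 of 37 in complex I, 4 of 4 in complex II, 8 of 8 in complex III, 12 of 17 in complex IV and 17 of 18 in complex V. Complex V took a larger part of the nuclear subunit counts in ASCs, at 44.5% to 46.8% against 38.7% to 43.5% in QSCs. Complex I took a smaller part, at 21.8% to 23.1% against 24.1% to 27.1%. For both complexes the states did not overlap. Complex III took 9.94% to 10.39% in ASCs and 9.40% to 9.81% in QSCs, a smaller step that also left no overlap, and the ranges of complexes II and IV overlapped.

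**Figure D3:**
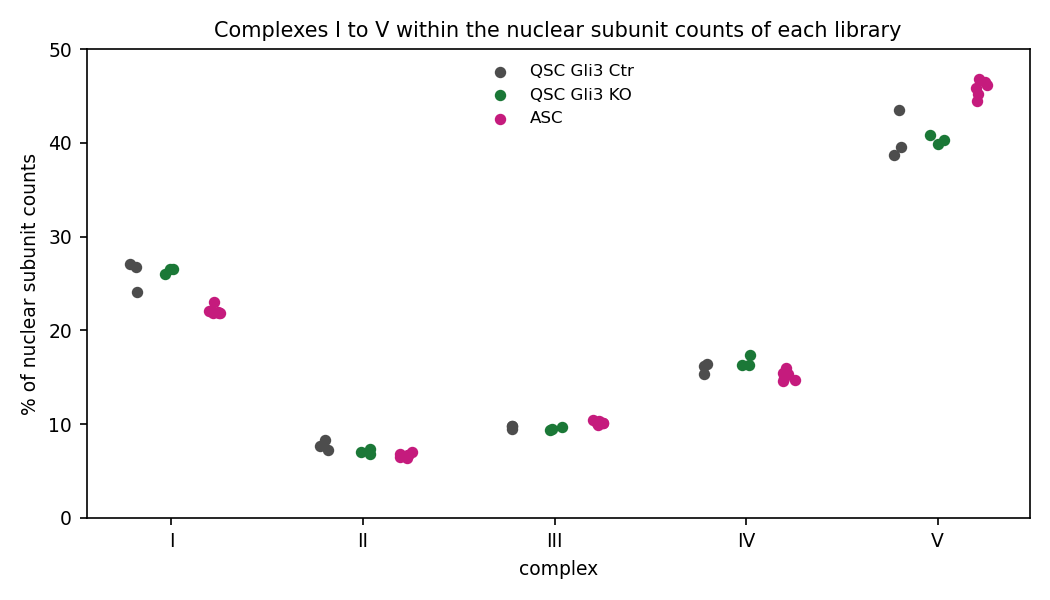
Percent of the nuclear encoded subunit counts of a library that belong to each complex, with 1 point per library in Gli3 Ctr QSCs, Gli3 KO QSCs and ASCs. Complex V lies at 38.7% to 43.5% in QSCs and 44.5% to 46.8% in ASCs, and complex I lies at 24.1% to 27.1% in QSCs and 21.8% to 23.1% in ASCs.

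Complex I is the entry point for NADH and the largest of the complexes. Its 7 nuclear core subunits, which carry the flavin and the iron-sulphur clusters, were all called higher in ASCs. Among them Ndufs7 was higher by 0.77, Ndufs1 by 1.11 and Ndufs8 by 1.04 on the log2 scale. Of its 30 nuclear accessory subunits, which surround the core, 26 were called higher and 1 lower, and their differences ranged widely. At the upper end Ndufb6 stood at 15.6 CPM (lowest), 20.9 (median) and 21.3 (highest) in QSCs and 53.4, 84.1 and 95.4 CPM in ASCs, a log2 fold change of 2.06 ± 0.14 (SE, edgeR adjusted p = 4.6e-08). At the lower end Ndufb11, Ndufa6 and Ndufb2 had log2 fold changes of -0.03, 0.00 and 0.01, with edgeR adjusted p of 0.808, 0.976 and 0.938. Ndufb11 is an X-linked subunit of the membrane arm, and its QSC range of 57.4 to 73.0 CPM enclosed its ASC range of 57.9 to 68.5 CPM.

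One complex I member went the other way. Ndufv3 (chr17:31520115-31531331, plus strand, GRCm38), an accessory subunit near the NADH binding site, stood at 38.9, 34.7 and 27.3 CPM in Gli3 Ctr QSCs, 32.1, 39.9 and 38.5 CPM in Gli3 KO QSCs, and 18.5 (lowest), 22.6 (median) and 26.2 CPM (highest) in ASCs. Every ASC library lay below every QSC library, with a log2 fold change of -0.69 ± 0.12 (0.621-fold, edgeR adjusted p = 0.000244). Its partners in the same tip of the complex, Ndufv1 and Ndufv2, which bind flavin and an iron-sulphur cluster, were higher by 0.81 and 1.14 on the log2 scale.

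Among the complex I assembly factors 7 of 8 were called higher. The largest difference was that of Ndufaf5, an enzyme that modifies the core subunit Ndufs7, from 4.81 to 6.11 CPM in QSCs to 13.4 to 20.8 CPM in ASCs (log2 fold change 1.70 ± 0.14, edgeR adjusted p = 1.64e-07). The one not called was Ndufaf3, at 4.23 to 7.19 CPM in QSCs and 4.87 to 8.76 CPM in ASCs (log2 fold change 0.18 ± 0.19, edgeR adjusted p = 0.435).

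In complex II, which also belongs to the citric acid cycle, the gene with the highest level had the smallest difference. It was Sdha, the flavoprotein that oxidises succinate, at 80.6 ± 4.10 CPM per kb in QSCs (SD, n = 6). Its CPM values were 213 (lowest), 235 (median) and 245 (highest) in QSCs and 308, 342 and 362 in ASCs, a log2 fold change of 0.55 ± 0.07 (edgeR adjusted p = 1.9e-05). Sdhd, a membrane anchor, stood at 46.8, 54.4 and 60.2 CPM in QSCs and 154, 218 and 269.9 CPM in ASCs, a log2 fold change of 1.99 ± 0.13 (edgeR adjusted p = 2.86e-08). The states did not overlap for either gene, and Sdhb, the iron-sulphur subunit, and Sdhc, the other anchor, lay between them at 1.61 and 1.26.

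All 8 nuclear subunits of complex III were called higher. The leading one was Uqcrq, a small subunit that binds cytochrome b, with 16.4, 23.7 and 27.2 CPM in QSCs (lowest, median, highest) and 77.8, 106 and 119.9 CPM in ASCs (log2 fold change 2.16 ± 0.13, edgeR adjusted p = 1.65e-08). The Rieske protein gene Uqcrfs1 was higher by 1.74 and the structural core genes Uqcrc1 and Uqcrc2 by 1.43 and 1.09. Uqcrh, the acidic hinge protein beside cytochrome c1, was the least changed at 0.63 ± 0.11. The single mitochondrial subunit of this complex, mt-Cytb, stood at 3785 to 4721 CPM in QSCs and 3370.3 to 5092 CPM in ASCs (log2 fold change -0.07 ± 0.12, edgeR adjusted p = 0.624).

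Complex IV held the largest difference of any nuclear member above 10 CPM in QSCs. Cox5a (ENSMUSG00000000088, chr9:57521274-57532426, plus strand, GRCm38), a nuclear subunit on the matrix side of the enzyme, stood at 27.5, 20.7 and 39.9 CPM in Gli3 Ctr QSCs and 34.0, 30.7 and 30.7 CPM in Gli3 KO QSCs. In ASCs it ranged from 132 through a median of 192 to 213 CPM, all far above QSCs. The log2 fold change was 2.6 ± 0.16 (6.06-fold, edgeR adjusted p = 1.56e-08). Ndufa4, once assigned to complex I and now known as a complex IV subunit, stood at 26.8, 36.6 and 45.9 CPM in QSCs and 111, 172 and 182 CPM in ASCs (log2 fold change 2.17 ± 0.15, edgeR adjusted p = 4.88e-08). Cox7b followed at 2.04 ± 0.13.

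Against these, Cox4i1 differed by only 0.52 ± 0.10 (256 to 356 CPM in QSCs, 364 to 455 CPM in ASCs, edgeR adjusted p = 0.000438). Cox7a2l, a form of subunit VIIa that joins complexes III and IV into supercomplexes, stood at 109.8 to 170.2 CPM in QSCs and 120.0 to 156 CPM in ASCs, a log2 fold change of 0.02 ± 0.11 (edgeR adjusted p = 0.905). Its counterpart in free complex IV, Cox7a2, was higher by 1.42 ± 0.13. The extremes named here for the difference between states, apart from the genes named by the rule given with the methods, were chosen after their values were seen.

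Several complex IV subunits exist as a ubiquitous form and a form made in heart, muscle, lung or testis, and in both states the ubiquitous form supplied nearly all of the RNA. The muscle form Cox6a2 made up 0.0685% to 0.521% of the Cox6a pair per length in QSCs and 0.0489% to 0.784% in ASCs. The muscle form Cox7a1 made up 1.80% to 3.36% of its pair with Cox7a2 in QSCs and 1.46% to 6.21% in ASCs, while its own level was higher in ASCs, from 0.492 to 0.924 CPM in QSCs to 1.14 to 4.06 CPM (log2 fold change 1.82 ± 0.31, edgeR adjusted p = 0.000167). The sum of muscle fibre markers was also higher in ASCs, at 48.3 to 77.1 CPM in QSCs and 97.6 to 442 CPM in ASCs. Among ASC libraries the 2 did not rank alike: Cox7a1 was highest in library 543, where the marker sum was 174 CPM. The part of these markers in the level of Cox7a1 was not tested. The muscle form Cox8b was called lower in ASCs, with a log2 fold change of -1.39 ± 0.47 (edgeR adjusted p = 0.0216), on 2 to 38 counts per library. The testis form Cox6b2 made up 4.28% to 11.5% of its pair with Cox6b1 in QSCs and 1.73% to 3.31% in ASCs, since Cox6b1 was higher by 1.71 and Cox6b2 by 0.08 on the log2 scale. Ndufa4l2 was called higher (1.93 ± 0.64, edgeR adjusted p = 0.0194), but library 928 held its highest value, 5.90 CPM, and without it the log2 fold change was 1.26 (edgeR adjusted p = 0.0604).

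Complex V had the highest nuclear median. The β subunit Atp5b stood at 568, 733 and 796 CPM in QSCs (lowest, median, highest) and 1516, 2115 and 2373 CPM in ASCs, a log2 fold change of 1.53 ± 0.12 (edgeR adjusted p = 2.12e-07), and was the nuclear member with the most counts in each state. The α subunit Atp5a1, with which it forms the catalytic head, was higher by 1.17. Atp5md, a small subunit of the membrane part, was higher by 2.27 ± 0.12. Among the nuclear members of this complex only Atp5g2 was not called. Neither of its mitochondrial members, mt-Atp6 and mt-Atp8, was called.

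The membrane ring of complex V is built from subunit c, whose mature protein is the same from all 3 genes Atp5g1, Atp5g2 and Atp5g3. Atp5g3 (chr2:73908447-73911326, minus strand) stood at 83.6, 103 and 122 CPM in QSCs and 359, 530.1 and 596 CPM in ASCs, a log2 fold change of 2.28 ± 0.14 (4.84-fold, edgeR adjusted p = 1.57e-08), and supplied 70.1% to 82.2% of the subunit c counts in QSCs and 83.8% to 91.4% in ASCs. Atp5g1 (chr11:96068852-96075670, minus strand) was higher by 1.47 ± 0.24 (edgeR adjusted p = 0.000138). Atp5g2 stood at 3.83 to 5.89 CPM in QSCs and 2.19 to 12.2 CPM in ASCs (log2 fold change 0.33 ± 0.34, edgeR adjusted p = 0.415). Atp5g2 shares 37.5% of its 31-base words with the copy Gm10175, which took most of the reads, and the sum of both was 83.0 to 117 CPM in QSCs and 142 to 180 CPM in ASCs, without overlap. With Gm10175 among the subunit c counts, an alternative chosen after seeing the data, the part of Atp5g3 was 39.3% to 53.6% in QSCs and 64.8% to 73.3% in ASCs.

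A gene model with the name Atp5o that reads through from the neighbouring gene Donson shares 94.0% of its words with other genes, and its values (0 to 2.19 CPM in QSCs, 7.40 to 13.8 CPM in ASCs) are uncertain. The main Atp5o gene (chr16:91925214-91931687, minus strand), which encodes the stalk subunit that ties the head to the membrane, was higher by 1.87 ± 0.12 (edgeR adjusted p = 2.45e-08).

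**Figure D4:**
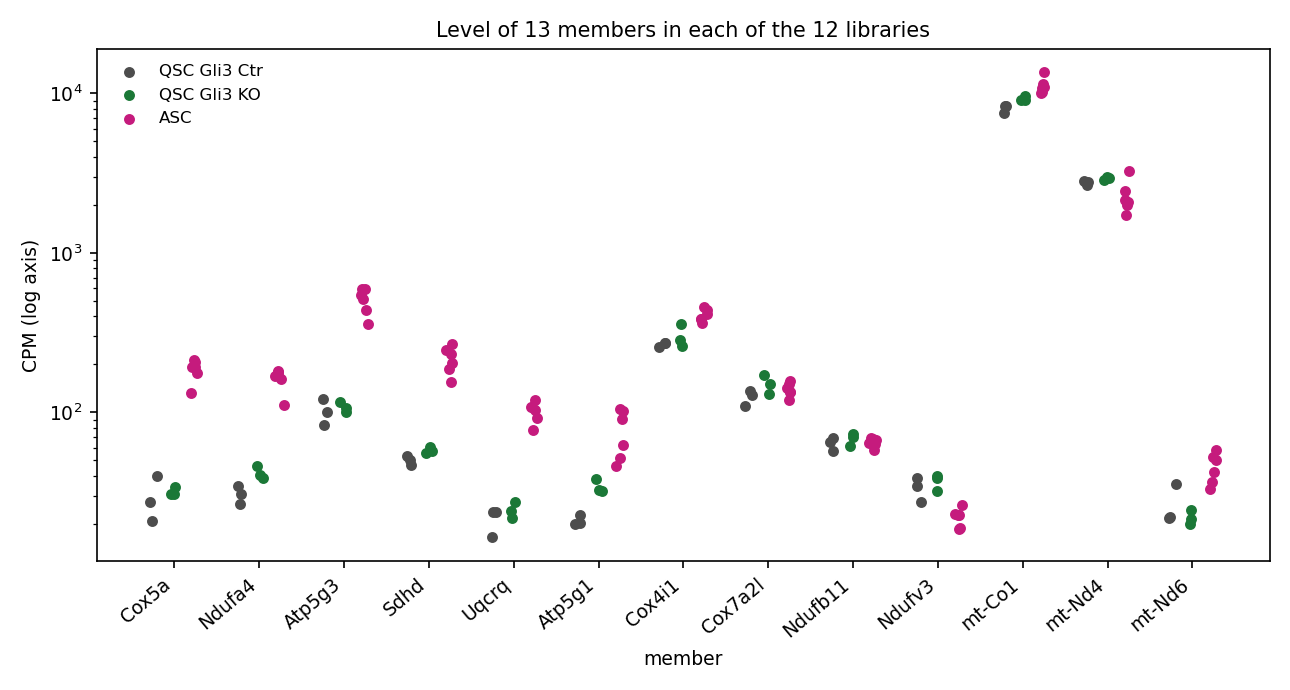
CPM on a log axis of 13 members in each library of Gli3 Ctr QSCs, Gli3 KO QSCs and ASCs. Cox5a, Ndufa4, Atp5g3, Sdhd and Uqcrq separate the states fully, Cox7a2l and Ndufb11 overlap, Ndufv3 is lower in ASCs, and Atp5g1 also separates the genotypes in QSCs, at 19.9 to 22.6 CPM in Gli3 Ctr and 32.2 to 38.1 CPM in Gli3 KO.

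The mitochondrial members did not move together between states. Called higher in ASCs were mt-Nd6, mt-Nd1 and mt-Co1. The largest difference was that of mt-Nd6 (chrM:13552-14070, minus strand), at 35.7, 22.1 and 21.8 CPM in Gli3 Ctr QSCs, 24.5, 21.5 and 19.8 CPM in Gli3 KO QSCs, and 52.3, 50.5, 33.1, 36.7, 42.5 and 58.0 CPM in ASC libraries 246, 540, 543, 928, 960 and 1818 (log2 fold change 0.91 ± 0.17, edgeR adjusted p = 0.000423). Only the first Gli3 Ctr library reached into the ASC range. The RNA of mt-Nd6 is known to lack a poly(A) tail in large part, and these libraries were made by poly(A) selection. Whether the counting used strand is not given in the sources used here, so reads from the opposite strand cannot be told apart.

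On the other strand mt-Nd1, the first protein gene after the ribosomal RNAs, stood at 2259.6 (lowest), 2488 (median) and 2627 CPM (highest) in QSCs and 2756, 3358 and 3894 CPM in ASCs, without overlap (log2 fold change 0.43 ± 0.10, edgeR adjusted p = 0.00242). mt-Co1, the catalytic subunit of complex IV, stood at 7572, 8677 and 9595 CPM in QSCs and 10011, 10959 and 13519 CPM in ASCs (log2 fold change 0.37 ± 0.11, edgeR adjusted p = 0.0117). The call of mt-Co1 was lost with upper quartile library sizes (0.21, edgeR adjusted p = 0.127), with sizes from protein-coding genes (0.23, edgeR adjusted p = 0.0821), and against Gli3 KO QSCs only (0.26, edgeR adjusted p = 0.159). These were the only 2 mitochondrial members in which every ASC library lay above every QSC library. For mt-Co1 this did not hold with its copies, which share 63.9% of its 31-base words: the sums were 9536 to 11798 CPM in QSCs and 11754 to 16286 CPM in ASCs.

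mt-Nd4, a proton pumping subunit of complex I, leaned the other way, at 2679 to 2993 CPM in QSCs and 2447, 2096, 1982, 3238, 1716 and 2159 CPM in ASC libraries 246, 540, 543, 928, 960 and 1818. All ASC libraries but 928 lay below the QSCs, and 928 lay above them. The log2 fold change was -0.32 ± 0.14 (edgeR adjusted p = 0.0556), and -0.48 ± 0.10 without library 928, where it was called lower (edgeR adjusted p = 0.00114). DESeq2 also called mt-Nd4 lower (-0.32, adjusted p = 0.0387), as did limma-voom (-0.46, adjusted p = 0.000226). The limma-voom fits weight each library by its quality, so a library that stands apart can count for less. edgeR called mt-Nd4 lower with upper quartile sizes (-0.49, edgeR adjusted p = 0.00334) and with sizes from protein-coding genes or without the mitochondrial genome. It did so too with at least 10 counts in every library, and without Gli3 Ctr replicate 3 (edgeR adjusted p = 0.0492). The count of none lower therefore depends on tool and setting. mt-Nd4l, whose reading frame shares 7 bases with that of mt-Nd4 on the same transcript, had -0.27 with all libraries (edgeR adjusted p = 0.0775) and -0.40 without library 928 (edgeR adjusted p = 0.00324), and limma-voom also called it lower (-0.38, adjusted p = 0.00219), as did edgeR with upper quartile sizes or sizes from protein-coding genes. The other 8 had log2 fold changes from -0.08 (mt-Co3) to 0.25 (mt-Atp8), and among them mt-Nd3 (0.08) and mt-Nd5 (0.03) turned negative with upper quartile library sizes (-0.09 and -0.13) and without library 928 (-0.07 and -0.02).

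Mitochondrial genes overlap and have near-identical copies in the nuclear genome, which limits how well their counts are separated. The region shared by mt-Atp8 and mt-Atp6, which are read in different frames from one RNA, spans 43 bases (chrM:7927-7969, plus strand, GRCm38) and is shown because reads from within it belong to either gene. Capitals mark the start codon of mt-Atp6 and the stop codon of mt-Atp8.
mt-Atp8 and mt-Atp6: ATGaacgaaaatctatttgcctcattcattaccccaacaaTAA

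Of the 106 members 76 shared at least one 31-base word with another gene and 8 shared over 50% of their words, all but 1 of these mitochondrial. The copy Gm10925 holds 99.5% of the words of mt-Atp6 and took 80.4 to 2273 CPM, and the sum of both was 6018 to 7105 CPM in QSCs and 6736 to 9572 CPM in ASCs. The sum of mt-Nd4 and its copy Gm28439 was 3237 to 3614 CPM in QSCs and 2158 to 3983 CPM in ASCs, and again library 928 lay above and the other ASC libraries below all QSC libraries. mt-Nd1 shared no word with any other gene, so its difference between states does not depend on such copies. Among nuclear members Ndufa12 (log2 fold change 2.42 ± 0.33) shared reads with Gm15920, and their sum was 20.2 to 28.9 CPM in QSCs and 54.7 to 87.8 CPM in ASCs.

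The share of all counts from the 31 genes of the mitochondrial genome was 3.49% to 4.33% in QSCs and 4.10% to 5.57% in ASCs, with means of 4.04% and 4.63%. The difference of 0.586 percentage points passed a two-sided exact permutation test over the libraries (p = 0.0195, the smallest possible being 0.00216). With the ribosomal RNAs and transfer RNAs left out, the difference was 0.407 points and did not pass (p = 0.126, exact permutation). The mitochondrial ribosomal RNAs alone took 0.132% to 0.197% of counts in QSCs and 0.289% to 0.371% in ASCs.

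Genes that act with the chain were described from lists of its assembly factors, carriers and regulators. Of 14 genes for the mobile electron carriers 10 were called higher in ASCs and 1 lower, against 30.4% and 28.8% of all genes. Cycs, cytochrome c, which carries electrons from complex III to IV, stood at 9.93 to 21.3 CPM in QSCs and 67.1 to 119.7 CPM in ASCs (log2 fold change 2.79 ± 0.19, edgeR adjusted p = 4.4e-08). Coq8a, a kinase-like protein of coenzyme Q synthesis, went from 95.1 to 190.5 CPM in QSCs to 11.2 to 22.7 CPM in ASCs (-3.03, edgeR adjusted p = 3.7e-08).

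Of 20 assembly factors for complex IV 15 were called higher and 1 lower: Cox10, which makes its haem, was higher by 1.70 and Surf1, which helps to insert haem, lower by 0.86. For complex V 4 of 4 in the table were called higher, among them the factor Tmem70 (1.92) and the inhibitor Atpif1 (1.80), which blocks ATP hydrolysis. For complex II 3 of 4, for complex I outside the Ndufaf genes 4 of 7, and for complex III 2 of 6 were called higher, the last near the 30.4% of all genes. Of the citric acid cycle genes 12 of 13 were called higher, with Cs, citrate synthase, at 1.37, and of 9 genes of the outer membrane and of mitochondrial mass all 9 were, with the channel Vdac1 at 1.99.

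Of 12 genes that copy and transcribe the mitochondrial genome 1 was called higher and 3 lower, where 30.4% and 28.8% of all genes were. Tfam, which packages and helps to transcribe the genome, stood at 47.7 to 68.6 CPM in QSCs and 42.8 to 70.0 CPM in ASCs (log2 fold change 0.06, edgeR adjusted p = 0.717), and the RNA polymerase Polrmt had 0.18 (edgeR adjusted p = 0.118). The single-strand binding protein Ssbp1 was higher by 0.85, and the DNA polymerase subunits Polg and Polg2 were lower by 0.64 and 1.46. Among 8 regulators known to act on nuclear subunit genes 3 were called higher, a share near the 30.4% of all genes. Esrra, an orphan nuclear receptor, stood at 10.3 to 24.2 CPM in QSCs and 45.3 to 71.8 CPM in ASCs (1.76, edgeR adjusted p = 4.8e-06), and its coactivator Ppargc1b was higher by 1.03. Nrf1 (0.07), Gabpa (-0.02) and Ppargc1a (-0.08) were not called.

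Promoters of the nuclear members were searched, since these genes moved together, for the letters bound by 4 known regulators on both strands, in RefSeq windows (GRCm38.p6) from 250 bases before to 50 after the start of transcription. A window was found for 74 nuclear symbols and for 14217 genes of the table, and 18 nuclear members had none. The NRF1 letters GCGCATGCGC, which read the same on both strands, were in 7 of 74 member windows (9.46%) and in 1.79% of all windows. Among protein-coding genes with a mean of at least 1 CPM, 2.27% held the NRF1 letters and 5.08% the YY1 letters. The YY1 letters AAGATGGC were in 10 of 74 (13.5%) and in 4.32% of all windows, in all 10 members on the strand of the gene and in 9 of them after the start. The ETS letters CCGGAAGT (6.76% of members, 7.08% of all windows) and the E-box CACGTG (6.76% and 10.4%) were not more frequent among the members. A match describes the letters and is not evidence that a factor binds there. None of the 4 strings holds another.

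The stretches that hold the NRF1 letters are shown with the letters in capitals and 10 bases on each side, read on the strand of the gene, because these letters are shared by subunit genes of complexes I, III, IV and V and by assembly factor genes of complex I. In order of the log2 fold change between states they belong to Atp5k (chr5:108434430-108434459, minus strand), Ndufaf5 (chr2:140170652-140170681, plus), Ndufaf4 (chr4:24897960-24897989, plus), Uqcrc1 (chr9:108936668-108936697, plus), Ndufa11 (chr17:56717692-56717721, plus), Cox6a1 (chr5:115349101-115349130, minus) and Atp5g2 (chr15:102671070-102671099, minus).
Atp5k: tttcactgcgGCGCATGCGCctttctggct
Ndufaf5: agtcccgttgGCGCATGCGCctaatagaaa
Ndufaf4: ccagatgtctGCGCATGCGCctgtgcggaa
Uqcrc1: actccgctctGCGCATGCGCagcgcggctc
Ndufa11: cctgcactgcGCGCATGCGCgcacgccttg
Cox6a1: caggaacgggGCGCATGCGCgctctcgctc
Atp5g2: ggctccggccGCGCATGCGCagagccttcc

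For the YY1 letters, stretches of 30 bases are shown for the 5 members with the largest difference between states, again with the letters in capitals and on the strand of the gene. They lie in Ndufs4 (chr13:114388045-114388074, minus strand), Atp5j2 (chr5:145191500-145191529, minus), Ndufa9 (chr6:126849097-126849126, minus), Ndufc1 (chr3:51408915-51408944, minus) and Ndufs6 (chr13:73328433-73328462, minus). In all 5 the letters begin 23 to 36 bases after the start.
Ndufs4: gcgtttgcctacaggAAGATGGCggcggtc
Atp5j2: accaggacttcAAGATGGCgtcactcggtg
Ndufa9: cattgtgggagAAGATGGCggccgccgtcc
Ndufc1: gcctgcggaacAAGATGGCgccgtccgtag
Ndufs6: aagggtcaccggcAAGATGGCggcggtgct

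Between genotypes in QSCs, no member passed the test. Of all genes 0.351% (88) were called by edgeR, and none was a member. At an unadjusted p under 0.05 edgeR had 6 members, against 7.11% of all genes, DESeq2 called 1 member (Atp5g1) and 1.53% of all genes, and limma-voom called none. What the members shared was a small difference in one direction: 94 of 106 were fitted higher in Gli3 KO, against 45.0% of all genes, and the median log2 fold change was 0.15 (-0.03 over all genes). In 39 members every Gli3 KO library lay above every Gli3 Ctr library (7.39% of all genes) and in none every one below (5.75%). Of the 13155 protein-coding genes with a mean of at least 1 CPM, 6264 were fitted higher, with a median log2 fold change of -0.01. Among those 13155 genes every Gli3 KO library lay above every Gli3 Ctr library in 1183 and below in 639. With 1 library left out in turn, 86 to 97 members were fitted higher in Gli3 KO. Members with every Gli3 KO library above every Gli3 Ctr library were then 41 to 66, against 10.5% to 14.5% of all genes. That count cannot fall when a library is removed, so it is no check of the result.

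**Figure D5:**
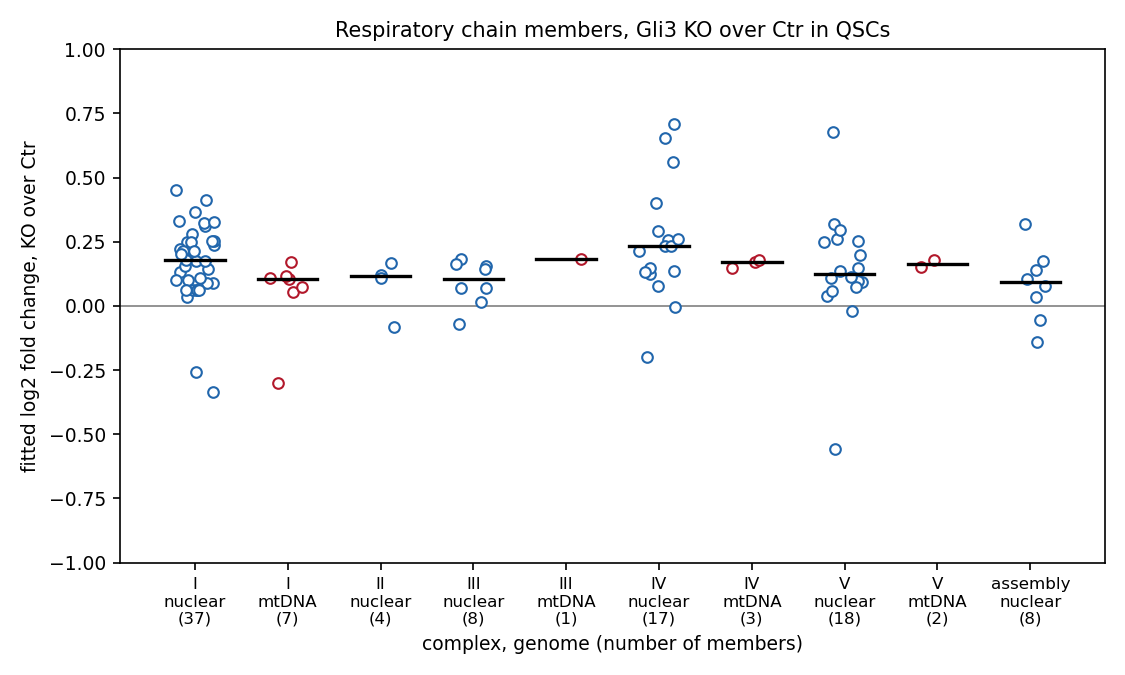
Fitted log2 fold change of each member in Gli3 KO over Gli3 Ctr QSCs (3 libraries each), by complex and by genome, with open points throughout because none was called and a bar at the median. Medians lie between 0.09 and 0.23 in every group drawn, and Ndufa4l2 is not drawn.

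Whether the difference varied between genomes or complexes was not tested. The median log2 fold change was 0.15 for nuclear and 0.15 for mitochondrial members, and 0.18, 0.12, 0.11, 0.23 and 0.12 for the nuclear subunits of complexes I to V. Nuclear subunits took 0.530%, 0.493% and 0.500% of counts in Gli3 Ctr and 0.535%, 0.577% and 0.602% in Gli3 KO libraries. Mitochondrial subunits took 3.67%, 3.89% and 3.34% against 4.13%, 4.14% and 4.13%. The genotypes did not overlap in either share, and for the nuclear share the gap between the nearest libraries was 0.530% to 0.535%. The ratio of both shares was 1.01 times as high in Gli3 KO. The share of the whole mitochondrial genome was higher by 0.519 percentage points (4.30% ± 0.0244 against 3.78% ± 0.272, SD, n = 3 each), with p = 0.1 in a two-sided exact permutation test, the smallest that 3 against 3 libraries can give.

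Among single members Atp5g1, one of the genes of subunit c, had the largest difference above 1 CPM. It stood at 19.9, 20.3 and 22.6 CPM in Gli3 Ctr and 32.6, 32.2 and 38.1 CPM in Gli3 KO QSCs. The genotypes were well apart, with a log2 fold change of 0.68 ± 0.14 (unadjusted p = 0.00119, edgeR adjusted p = 0.149). DESeq2 called it (adjusted p = 0.0046), limma-voom did not (adjusted p = 0.091), and leaving out 1 library at a time gave edgeR adjusted p from 0.089 to 0.544. Atp5g3 stood at 102 ± 19.1 CPM in Gli3 Ctr and 107 ± 7.61 CPM in Gli3 KO (SD, n = 3 each), and the part of Atp5g1 in the subunit c counts was 16.0%, 18.8% and 15.3% in Gli3 Ctr and 22.7%, 21.0% and 26.6% in Gli3 KO. With the copy Gm10175 counted as well it was 9.51% to 10.6% and 12.5% to 14.9%, still without overlap.

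Next in unadjusted p were Ndufa7, Ndufa4, Ndufs8, Cox8a and Ndufs4, all higher in Gli3 KO and none called. Ndufa7 (chr17:33824572-33838317, plus strand), an accessory subunit of complex I, stood at 32.3, 29.6 and 28.2 CPM in Gli3 Ctr and 36.3, 43.4 and 46.3 CPM in Gli3 KO (log2 fold change 0.45 ± 0.14, edgeR adjusted p = 0.43). Ndufa4 stood at 34.7, 26.8 and 30.8 CPM against 38.5, 45.9 and 40.3 CPM (0.40 ± 0.15, edgeR adjusted p = 0.571). Ndufs8, a core subunit with iron-sulphur clusters, stood at 34.7, 29.8 and 26.8 CPM against 36.7, 40.4 and 47.2 CPM (0.41 ± 0.15, edgeR adjusted p = 0.586). In each of the 3 genes the lowest Gli3 KO library lay above the highest Gli3 Ctr library.

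The members fitted lowest in Gli3 KO were the Atp5o readthrough model (-0.56), Ndufa4l2 (-0.44), Ndufa12 (-0.33), mt-Nd6 (-0.30) and Ndufs5 (-0.26), and none was called. The genotypes overlapped in all of them. For Ndufa12 and Ndufs5, both accessory subunits of complex I, the sum with the copy that shares their words lay the other way: Ndufa12 with Gm15920 was 20.2 to 26.3 CPM in Gli3 Ctr and 28.1 to 28.9 CPM in Gli3 KO, and Ndufs5 with BC002163 was 15.9 to 22.6 and 20.2 to 23.2 CPM. Of the lists of assembly factors, carriers, citric acid cycle genes and regulators, none had a member called by edgeR between genotypes. The sum of Schwann cell markers did not overlap between genotypes, at 67.6 to 96.3 CPM in Gli3 Ctr and 32.5 to 48.7 CPM in Gli3 KO and 3 of 4 at an unadjusted p under 0.05. Mural markers (149 to 402 and 172 to 211 CPM, 2 of 4), endothelial markers (46.8 to 108 and 54.3 to 65.0 CPM, 1 of 4) and genes of the dissociation response (38687 to 57689 and 39925 to 44505 CPM, 0 of 8) overlapped between genotypes but also had negative medians. The median log2 fold change was also negative for neutrophil (-0.41), erythroid (-0.36), fibro-adipogenic (-0.32), macrophage (-0.07) and satellite cell markers (-0.05). Only the markers of muscle fibres had a positive median (0.11). None of these markers was called, and their part in the small differences of the members was not tested.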

How the data were processed

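Poly(A)-selected RNA (20 ng) from sorted satellite cells was sequenced after directional library preparation. Per the labels and the study's methods, the authors quantified reads with salmon on GRCm38 (GENCODE vM19), summed them to genes with tximport and kept genes with at least 5 reads in at least 2 samples. The deposited table holds estimated counts, 48.0% of them not whole, which were rounded here. The authors' comparison tables, made with DESeq2, hold fold changes and p-values that were not used. Their gene biotypes were.

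Counts were scaled to CPM after TMM over 12 libraries and tested with edgeR 4.0.16 (quasi-likelihood, R 4.3.3), Benjamini-Hochberg adjusted over 25093 genes, with called meaning an adjusted p under 0.05 and a fold of at least 1.2. State was fitted over 12 libraries without a genotype term, since the genotype of each ASC column is unknown. Genotype was fitted over the 6 QSC libraries. Lengths came from principal transcripts of GENCODE vM21 (96.3% of identifiers had the same version). DESeq2 1.42.0, limma-voom 3.58.1 (with quality weights per library), other library sizes, filters and left-out libraries were alternatives. In simulated data edgeR recovered 86% of 4-fold and 40% of 2-fold changes in the genotype design, and 87% and 50% in the state design. In the genotype design edgeR called 13 unchanged genes, DESeq2 53 and limma-voom 1. Only 200 genes were changed, and no smaller changes were simulated. Of the genes, 172 had no symbol and 158 no biotype.

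The members, lists and motifs were chosen with earlier results of these data known. Named members were, by rule, the highest and lowest per length of each complex, the 5 largest rises and falls and those with an unadjusted p under 0.05 between genotypes, paralog pairs, the subunit c genes and all mitochondrial members (42 in all). Other named genes were chosen after their values were seen. The samples are separate pools or mice. Count precision is limited for 5 members with fewer than 10 counts in some library.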

Additional observations from a re-analysis of the deposited data

Results flagged for a closer look

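Of 54 values examined over the 6 ASC libraries, 9 had a library far from the others by Dixon's criterion, which chance alone gives in about 1 of 20 groups, and 8 of these were in library 928. Its ratio of mitochondrial to nuclear subunit counts was 5.32, with the next library at 3.33. Its mitochondrially encoded complex IV subunits summed to 26432 CPM (next 21076), with mt-Co2 at 6506 CPM (next 5369) and mt-Co3 at 6407 CPM (next 4668). The nuclear complex IV subunits Ndufa4 and Cox7b were low there, at 111 CPM (next 161) and 93.4 CPM (next 127), and the muscle forms were high on few counts, Cox6a2 at 1.16 CPM (next 0.485) and Cox8b at 0.446 CPM (next 0.153). This is the library with macrophage markers at 4701 CPM. Its fibro-adipogenic, mural, endothelial, Schwann and erythroid markers were also above those of every other ASC library. The part of these markers in these values was not tested. The remaining value was the muscle form Cox7a1 in library 543, at 4.06 CPM (next 2.16).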

How the results depend on the processing

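The nuclear median between states kept its direction under every alternative: 1.03 with upper quartile sizes, 1.05 with sizes from protein-coding genes and 1.3 against Gli3 Ctr QSCs only (1.17 as reported). The mitochondrial median (0.19) was 0.0236 and 0.0496 under the first 2 and 0.0619 to 0.213 with 1 library left out, lowest without ASC library 928. Between 83 and 89 members were called under all alternatives. The share of the mitochondrial genome, ASC minus QSC, was 0.407 points with protein-coding genes only and 0.398 to 0.692 points with 1 library left out. The ratio of the genomes, ASC over QSC, ran from 0.430 to 0.505. Sizes from another scaling moved the split of higher and lower calls by under 10 points.

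Between genotypes DESeq2 called 384 genes (192 higher and 192 lower) and 1 member, requiring at least 10 counts in every library left 48 calls, leaving out 1 library gave 58 to 103 (lowest without Gli3 KO replicate 3), and 1 fit of 12 libraries in 3 groups, chosen after seeing the data, gave 3. The median over members ran from 0.12 to 0.19. With the replicate number as a block 79 genes and no member were called, and Atp5g1 had an edgeR adjusted p of 0.294. Same-numbered libraries did not deviate together (correlations -0.23, -0.004 and -0.04 over 14543 genes), while pairs with unlike numbers reached 0.26. Deviations from a mean of 3 libraries cannot exclude pairing, and none was assumed in the main fit. The states were not paired, since QSC libraries were pools of uninjured mice and each ASC library came from 1 injured mouse. All alternatives for the state comparison beyond the count of members called were chosen after seeing the data. At this depth and n, a lack of calls between genotypes does not show that members did not differ.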
